A study of Mus musculus with 19 samples.

Results

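Transcripts of 10 glutathione S-transferase genes were followed across 10 mouse liver tumours. The genes were Gstm1, Gstm2, Gstm3 and Gstm4 of the mu class, Gsta2, Gsta3 and Gsta4 of the alpha class, Gstp1 of the pi class, Gstt1 of the theta class and Gstz1 of the zeta class. They were taken by name, through their Ensembl identifiers, from the 39179 gene identifiers of the deposited count table, and all 10 passed the filter on low counts that 12462 genes passed. The tumours, numbered 04 to 13 and sampled whole, arose in male mice on the genotype Ctnnb1tm1Mmt (HET) with Gt(ROSA)26Sortm1(MYC)Djmy (HOM), that is, 1 conditional activating allele of the β-catenin gene and a human MYC transgene at both copies of the Rosa26 locus. Both were switched on by AAV8.TBG.PI.Cre.rBG, an adeno-associated virus whose TBG promoter drives Cre recombinase in hepatocytes, given at 640000000 genome copies per mouse. The labels give no age, and no other genotype or treatment differs between these tumours. All 3 control livers and all 3 livers given a high AAV dose were not analysed here, and neither were the other 3 tumours, so no level below is set against liver tissue without tumour.

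Glutathione S-transferases join the tripeptide glutathione to reactive, fat-soluble compounds, which are then exported from the cell and degraded to mercapturates. The liver is rich in them, and hepatocytes around the central vein, where β-catenin is active, hold more of several classes than hepatocytes around the portal vein. Their genes are also textbook targets of NRF2, the transcription factor of the oxidative stress response, and of CAR and PXR, the nuclear receptors that sense drugs. Gstz1 stands apart in function, since it works in the breakdown of tyrosine as maleylacetoacetate isomerase.

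Libraries held 11687034 to 36964427 gene counts. Levels are given as CPM, counts relative to the size of the library, on which 3 counts correspond to 0.0812 to 0.257, a floor that covers counting error only. The lowest count behind any of the 10 genes was 84, for Gsta2. Of the 7 hepatocyte marker genes, with a sum of 28082 to 42597 CPM, Alb was never below 13016 CPM and Hnf4a never below 614 CPM, while Serpina1c ran from 0.893 CPM in tumour 05 to 121 CPM in tumour 12. Compared with the hepatocyte sum, markers of other cells varied more. Their sums ranged from 13.3 to 135 CPM for 6 cholangiocyte genes, 30.1 to 236 CPM for 5 endothelial genes, 219 to 1704 CPM for 5 stellate and fibroblast genes, 18.2 to 132 CPM for 6 macrophage genes, 3.11 to 15.3 CPM for 6 lymphocyte genes and 101 to 6181 CPM for 5 blood genes. Column names of the table carry a tag whose first part divides the tumours into families of 3 (RMH4, tumours 04 to 06), 2 (RMH18, 07 and 08) and 5 (RMH35, 09 to 13). The meaning of the tag is not given, and if tumours with the same tag come from 1 mouse they are not independent, in which case p-values from fits without the tag family as a term may be too small. The p-values measure only the spread between these tumours. A set of structured RNAs including Rpph1 (8 of 10 listed were measured, of which 2 passed the filter), which lack long poly(A) tails, was high in tumours 05, 06 and 07 and low in the other 7, and it was used as a measure of library composition. Its sum was 49.6 to 89.5 CPM in the high tumours and 2.10 to 7.79 CPM in the low ones.

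Some of these genes have close copies, which limits how far a count belongs to 1 gene. Over a coding length of 630 bases Gstp1 and Gstp2 differ at 12, which makes them 98.1% identical. Gstm1 is 89.4% identical to Gstm3, 85.9% to Gstm2 and 80.1% to Gstm4 over 654 coding bases. The first 60 coding bases of the longest coding exon are printed for 3 pairs, to show what a read of 36 bases, the read length of the study, could tell apart. They are read from the transcript strand of GRCm39 (chr19:4085602-4085661 for Gstp1 and chr19:4090480-4090539 for Gstp2; chr9:78241125-78241184 for Gsta2 and chr9:78146767-78146826 for Gsta1; chr3:107922120-107922179 for Gstm1 and chr3:107891303-107891362 for Gstm2), and capitals mark bases that differ within a pair.
Gstp1: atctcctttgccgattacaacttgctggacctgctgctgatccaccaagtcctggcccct
Gstp2: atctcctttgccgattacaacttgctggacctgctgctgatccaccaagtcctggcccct
Gsta2: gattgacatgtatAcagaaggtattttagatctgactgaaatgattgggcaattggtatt
Gsta1: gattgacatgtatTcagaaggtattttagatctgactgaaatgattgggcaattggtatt
Gstm1: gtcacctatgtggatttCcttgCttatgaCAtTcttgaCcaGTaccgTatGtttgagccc
Gstm2: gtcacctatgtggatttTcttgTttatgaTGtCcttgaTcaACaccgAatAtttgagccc

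The stretch of the pi pair is the same in both genes, that of the alpha pair differs at 1 base and that of the mu pair at 10. Over all reference transcripts (GENCODE M39), the share of 36-base windows found in no other gene was 99.7% for Gsta4, 99.3% for Gstt1, 98.8% for Gstm4, 92.1% for Gsta3, 87.1% for Gstm1, 84.0% for Gstm2, 75.1% for Gstz1, 73.4% for Gstm3, 67.4% for Gsta2 and 65.9% for Gstp1. The windows that Gstp1 shared lay in Gstp2 and in the pseudogene Gstp-ps, and those of Gsta2 mostly in Gsta1, Gsta5 and Gsta13. Gstm3 shared 15.0% of its windows with Gm8834 and 10.6% with Gstm1. The loss in Gstz1 was of another kind, since only 0.41% of its windows occurred in genes elsewhere and the rest belonged to the overlapping genes Tmed8, Pomt2 and Gm6566. The table counts reads placed in more than 1 location apart from the genes, at 45.4% to 57.9% of all it counts per tumour, so the levels of Gstp1, Gsta2 and Gstm3 are uncertain, and those of Gsta4, Gstt1 and Gstm4 less so. Reads were sequenced in pairs, and what the mate adds to the placing of a read was not tested.

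Per kilobase of the canonical transcript Gstm1 reached 1398 ± 348 CPM and Gsta3 1309 ± 305 CPM (SD, n = 10), and Gstm1 was the higher in 7 of 10 tumours, so their order did not hold beyond the spread. Gstm3 followed at 413 ± 206 and Gstm2 at 280 ± 91.9 CPM per kilobase, again with overlapping ranges. Gstp1 (167 ± 36.9), Gstz1 (153 ± 36.1), Gstt1 (77.7 ± 26.1), Gstm4 (69.7 ± 24.3) and Gsta4 (51.0 ± 18.9) overlapped with their neighbours in this order, and Gsta2 was lowest at 10.9 ± 3.18 CPM per kilobase. The ranges of Gsta3 and Gstm3 did not overlap, nor did those of Gsta4 and Gsta2. With the merged length of all annotated exons as the divisor, chosen as an alternative after the data were seen, the order of levels changed. Gstm1 was at 767 ± 191 and Gsta3 at 335 ± 77.9 CPM per kilobase, with ranges of 441 to 1028 and 223 to 433 that did not overlap, while Gsta3 now overlapped with Gstm3 (312 ± 156). Gstz1 was at 31.8 ± 7.50 CPM per kilobase, after Gstm4 (55.2), Gstt1 (46.6) and Gsta4 (39.2), with overlapping ranges. The gap between Gstm1 and Gsta3 thus depended on the length chosen. In CPM, the 10 genes together took up 5552 ± 1078 (SD, n = 10), from 3864 in tumour 09 to 6658 in tumour 08, and 69.3% of this was Gstm1 and Gsta3.

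**Figure D1:**
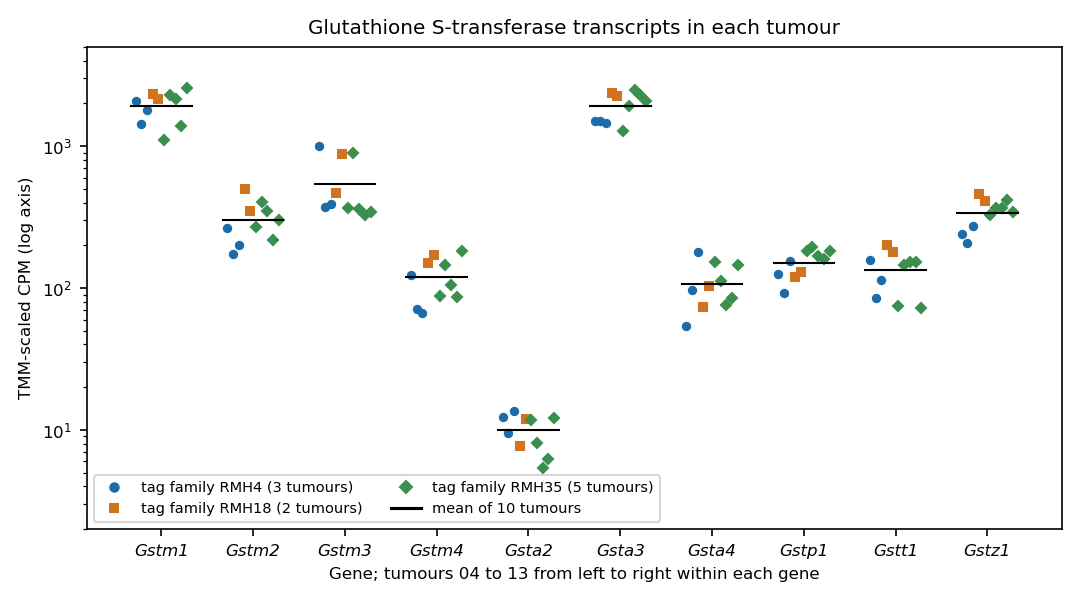
TMM-scaled CPM of the 10 glutathione S-transferase genes on a log axis, with 1 point per tumour (tumours 04 to 13 from left to right), symbols for the 3 tag families and a line at the mean. Gstm1 and Gsta3 have means of 1929 and 1917 CPM, Gsta2 one of 9.91, and for Gstm3 tumours 04, 08 and 10 stand above the other 7.

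Gstm1 to Gstm4 of the mu class lie close together on the reverse strand of chromosome 3. Gstm1, the main mu enzyme of mouse liver, extends from chr3:107919380 to 107925380 (GRCm39), and it was measured at 2085, 1424, 1794, 2314, 2150, 1110, 2305, 2136, 1388 and 2584 CPM in tumours 04 to 13 in that order. Tumours 09 and 12 had the least and tumour 13 the most, 2.33 times the level of tumour 09. Gstm2 (chr3:107889004-107893785) was at 266, 173, 201, 496, 351, 271, 407, 349, 217 and 302 CPM in the same order, so tumours 05 and 06 were lowest and tumour 07 highest. Gstm4 (chr3:107947721-107952210) was at 124, 71.0, 66.7, 151, 171, 88.4, 144, 106, 86.9 and 182 CPM, with tumours 05 and 06 lowest here too and tumour 13 highest. Values of the other genes are listed in the same order.

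Gstm3 was at 1011, 373, 392, 471, 881, 369, 888, 358, 326 and 346 CPM in tumours 04 to 13 (chr3:107871012-107881730). Tumours 04, 08 and 10, each of another tag family, were at 881 CPM or more and the other 7 at 471 CPM or less. Its SD of 0.65 log2 units was the largest of the 10 genes and above that of 84.8% of all genes kept. Gstm1 did not follow this split, with 2085, 2150 and 2305 CPM in those 3 tumours against 2584 CPM in tumour 13. The pattern most like that of Gstm3 among genes outside the family was that of Gm7707 (Pearson r = 0.92 over 10 tumours), followed by Scamp2 (0.91) and Cryz (0.91), which encodes a quinone oxidoreductase.

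Gsta3 (chr1:21310806-21335885), the main alpha class gene of these tumours, was at 1506, 1493, 1449, 2359, 2272, 1279, 1933, 2482, 2301 and 2093 CPM. Its range of 1.94-fold was the narrowest of the 10, and the 3 tumours of the RMH4 family together with tumour 09 were lowest. Gsta4 (chr9:78090056-78117763), which acts on 4-hydroxynonenal and other products of lipid peroxidation, was at 54.1, 96.5, 180, 72.9, 104, 152, 112, 75.5, 85.2 and 144 CPM. Its 3.32-fold range, from tumour 04 to tumour 06, was the widest of the 10. Gsta2 (chr9:78238292-78263077), a minor gene of the alpha class here, stayed between 5.42 CPM in tumour 11 and 13.7 CPM in tumour 06, with a median of 10.7 CPM. Gsta1, its near copy, was between 0.441 and 3.88 CPM and did not pass the filter, but only 7.03% of its windows occurred in no other gene, so its level is uncertain.

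Gstp1 (chr19:4085405-4088068), the pi class gene known as a marker of early hepatocyte transformation in rat liver, was at 125, 91.6, 155, 120, 129, 181, 196, 169, 160 and 182 CPM. All 5 tumours of the RMH35 family lay above the 5 others. Gstp2 was at 35.9 to 74.1 CPM and Gstp3 at 18.2 to 93.2 CPM, so Gstp1 made up 151 of the 251 CPM of the pi class, and how its counts and those of Gstp2 divide is uncertain. Gstt1 (chr10:75618994-75634445), which acts on small halogenated compounds, was at 157, 84.4, 114, 201, 179, 75.2, 146, 151.5, 154 and 71.8 CPM. It was lowest in tumours 13, 09 and 05. Against the mean of the other 9 tumours Gstt1 differed by -0.90 log2 units in tumour 13, where the median of the 594 genes kept from chromosome 10 differed by -0.37, and its neighbours Gstt3 and Gstt2 by -1.22 and -0.18. In tumour 09 the chromosome median was -0.01, while Gstt1 was at -0.83, Gstt2 at -0.60 and Gstt3 at 0.88. Gstz1 (chr12:87193898-87225026) was at 239, 209, 273, 459, 410, 326, 365, 367, 414 and 342 CPM, and the 3 RMH4 tumours were the lowest of the 10.

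As a group these genes varied somewhat more than most. The median SD over the 10 was 0.47 log2 units, against 0.33 over all genes kept, and the median ratio of the highest to the lowest tumour was 2.62 against 2.10. None of the 10 reached a 4-fold ratio, a count of 0 beside 16.5% of all genes. Tumour 05 was below the mean of the others for 9 of 10 genes (median difference -0.54 log2 units), and tumours 08 and 10 were above it for 9 of 10 each (medians 0.33 and 0.29).

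Pairs of genes were then correlated across tumours. Of 45 pairs, 28 had a positive Pearson r, where 49.7% of all pairs of a member with another gene did. An unadjusted permutation p under 0.05 was found for 7, beside 9.66% of all such pairs, and none passed Benjamini-Hochberg adjustment over all genes (permutation test with 100000 resamples). Each pair has 2 adjusted p-values, since either gene was tested against all others, and both are given, the lowest of all being 0.183 for Gstz1 with Gsta3. Gstm2 and Gstm4 had the highest r of all pairs, 0.79 (two-sided permutation p = 0.0081, adjusted p = 0.235 and 0.388; rho = 0.78, permutation p = 0.0105; n = 10), which was 0.74 when the 2 tumours with the most extreme Gstm2 levels were left out, 0.59 when those of Gstm4 were, and 0.59 in the 7 tumours with a low Rpph1 set (0.37 without tumour 12). Gsta3 and Gstz1 had an r of 0.77 (permutation p = 0.0107, adjusted p = 0.208 and 0.183; rho = 0.81, permutation p = 0.00738; n = 10) and Gstm1 and Gstm4 one of 0.76 (permutation p = 0.0113, adjusted p = 0.568 and 0.413; rho = 0.83, permutation p = 0.0045; n = 10). With the 2 extreme tumours of either gene left out, the first was 0.93 or 0.77 and the second 0.87 or 0.85, and in the 7 low tumours they were 0.69 and 0.84. Gsta4 had a negative r with each of the 4 mu genes and Gstt1, and Gsta2 with 3 of these 5. In the 7 low tumours r of Gsta4 was 0.18 with Gstm2 and 0.20 with Gstm4, and it stayed negative with Gstm1 (-0.19), Gstm3 (-0.38) and Gstt1 (-0.74). There r of Gsta2 was 0.07 with Gstm1, -0.03 with Gstm2 and -0.40 with Gstt1. With Gstm4 and Gstm3 it was 0.49 and 0.40 there, against 0.04 and 0.27 over all 10 tumours. The lowest r of all pairs was -0.65, for Gsta4 with Gstt1 and for Gsta2 with Gsta3, neither of which passed the adjustment (adjusted p = 0.905 and 0.842 for the first and 0.881 and 0.311 for the second, permutation tests, n = 10). The 3 tumours with a high Rpph1 set were too few for a value.

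**Figure D2:**
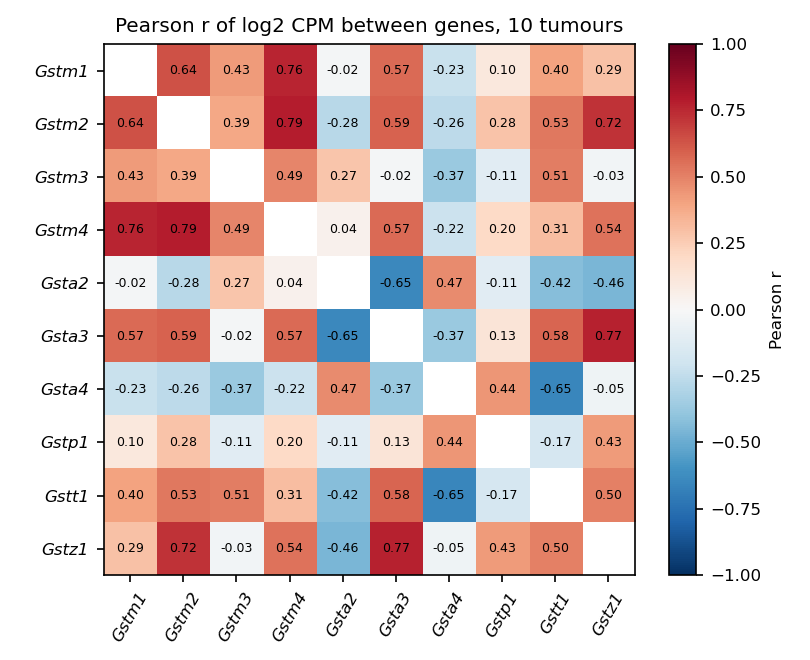
Pearson r of log2 CPM over 10 tumours for each pair of the 10 genes, from blue (-1) to red (1). The block of Gstm1, Gstm2 and Gstm4 is positive (0.64 to 0.79), while Gsta2 and Gsta4 are at or below 0.04 with each of these 3. This contrast was weaker in the tumours with a low Rpph1 set, which are not drawn apart. There r with Gstm1, Gstm2 and Gstm4 was 0.07, -0.03 and 0.49 for Gsta2. For Gsta4 it was -0.19, 0.18 and 0.20 in the same order.

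Genes outside the family with the most similar pattern were named by rank of r alone, as a description over 10 tumours that share libraries. No gene passed adjustment for any of the 10 members, by r or by rho (permutation tests, n = 10). By r, the adjusted permutation p of those named ran from 0.0935 for Gstm2 to 0.905 for Gsta4. The genes nearest to Gstm2 were Notumos (0.97), Bphl (0.97) and Tmed1 (0.96). Notumos is antisense to Notum, a β-catenin target that is part of the score used later, and without strand the reads of these genes cannot be told apart. Gstm1 was nearest to Fam174a (0.96), Pold2 (0.95) and Coa3 (0.95), and Gstm4 to Gm12222 (0.93), Sort1 (0.92) and Pklr (0.92), which encodes the liver pyruvate kinase. Gsta3 was nearest to Cables2 (0.96), Oaz1 (0.94) and Npr2 (0.94). For Gsta2 the nearest were Lrrc8b (0.91), Sptlc2 (0.90) and Abi2 (0.90), and for Gsta4 they were Mrps30 (0.91), the apoptosis gene Bax (0.89) and Rcc1 (0.88). Gstp1 was nearest to Fam98a (0.95), Pop1 (0.92) and Stimate (0.91), Gstt1 to Tmem42 (0.96), Smim27 (0.93) and Rassf3 (0.93), and Gstz1 to Zfp101 (0.98), Dnajc28 (0.96) and Mdh1 (0.93). Sort1 and Pklr lie on chromosome 3 with Gstm4, as Cryz does with Gstm3, and Rassf3 lies on chromosome 10 with Gstt1. The part of shared location in these values was not tested.

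Differences between the tag families were tested with the edgeR quasi-likelihood test over all genes. None of the 10 genes passed an adjusted p of 0.05, where 0% of all genes did, and 3 had an unadjusted p under 0.05 beside 13.6% of all genes. Gstz1 had geometric means of 239 CPM in the RMH4, 434 CPM in the RMH18 and 362 CPM in the RMH35 tumours (adjusted p = 0.191). Gstm2 had means of 210, 417 and 302 CPM in the same order (adjusted p = 0.281), and Gstp1 had 121, 124 and 177 CPM (adjusted p = 0.289). With DESeq2 in place of edgeR, Gstz1 alone passed (adjusted p = 0.00212), beside 4.14% of all genes. Tumours 05 and 06, which make up most of the RMH4 family, also belong to the 3 tumours with a high Rpph1 set. With that set as a covariate in edgeR the adjusted p of Gstz1 was 0.584, and it was 0.191 in edgeR without it.

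Whether the genes followed the activity of β-catenin was asked with a score, the mean log2 CPM of 11 β-catenin targets without any glutathione S-transferase (Glul, Lgr5, Axin2, Notum, Lect2, Tbx3, Nkd1, Sp5, Rnf43, Znrf3 and Slc1a2). The score ran from 7.28 in tumour 06 to 8.52 in tumour 07. A slope is the change in log2 CPM of a gene per unit of the score. No slope of the 10 passed in edgeR, where 0.0321% of all genes did (0.0241% with a positive and 0.00802% with a negative slope), but 7 had an unadjusted p under 0.05, beside 14.6% of all genes. Of 17 alternatives for each gene, such a p was kept in 17 for Gstm2, 16 for Gsta3, 15 for Gstm4 and 14 for Gstz1. It was kept in 12 for Gstt1 and in 9 each for Gstm1 and Gsta4. Of the 10, 8 slopes were positive, counting Gstp1 at 0.00 ± 0.29, beside 49.0% of all genes, with a median of 0.63 over the 10 against -0.01 over all genes. In bulk tissue, fewer hepatocytes and less RNA per hepatocyte cannot be told apart.

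Gstm2 had the steepest slope, 1.01 ± 0.23 (SE; adjusted p = 0.135, edgeR), followed by Gstm4 at 0.99 ± 0.33 (adjusted p = 0.219), Gstt1 at 0.84 ± 0.33 (adjusted p = 0.275) and Gsta3 at 0.77 ± 0.22 (adjusted p = 0.179). Gstm1 and Gstz1 had slopes of 0.64 ± 0.28 and 0.62 ± 0.24 (adjusted p = 0.319 and 0.275, edgeR). Gsta4 had the opposite sign, -0.78 ± 0.34 (adjusted p = 0.326, edgeR), and so did Gsta2, -0.68 ± 0.33 (adjusted p = 0.367, edgeR). Gstm3 gave 0.46 ± 0.57, smaller than its error, and the slope of Gstp1 was positive in 11 of 17 alternatives.

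Correlation with the score was highest for Gstm2 and Gsta3. Gstm2 had an r of 0.85 with the score (two-sided permutation p = 0.00259, adjusted p = 0.169; rho = 0.85, permutation p = 0.00281, adjusted p = 0.176; n = 10). Gsta3 had an r of 0.84 (permutation p = 0.00232, adjusted p = 0.166; rho = 0.87, permutation p = 0.00216, adjusted p = 0.175; n = 10). Without tumours 06 and 07, the farthest from the median score, r was 0.72 for Gstm2 and 0.85 for Gsta3 over 8 tumours. In the 7 tumours with a low Rpph1 set r was 0.68 and 0.83 (0.83 and 0.59 without tumour 09). In those 7 the β-catenin score itself had an r of -0.84 with the non-hepatocyte score (-0.52 without tumour 09), against -0.13 over all 10 tumours, and one of 0.17 with the hepatocyte markers, and the part of other cells in these values was not tested. With DESeq2 both passed (adjusted p = 0.00752 for Gstm2 and 0.0138 for Gsta3), beside 3.08% of all genes. With the tag family as a term, neither was called, and the slopes were 0.72 for Gstm2 (adjusted p = 0.511, edgeR) and 0.63 for Gsta3 (adjusted p = 0.557, edgeR). The slope of Gstz1 then fell to 0.06, while that of Gsta4 was steeper, at -1.35 (adjusted p = 0.444, edgeR). However, r of Gsta4 with the score was -0.53 over all 10 tumours and -0.20 without tumours 06 and 07. In the 7 low tumours it was -0.22, and 0.37 there without tumour 09. For Gstm4 r was 0.71 over all 10, 0.59 without tumours 06 and 07, and 0.48 in the 7 low tumours (0.16 without tumour 09).

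**Figure D3:**
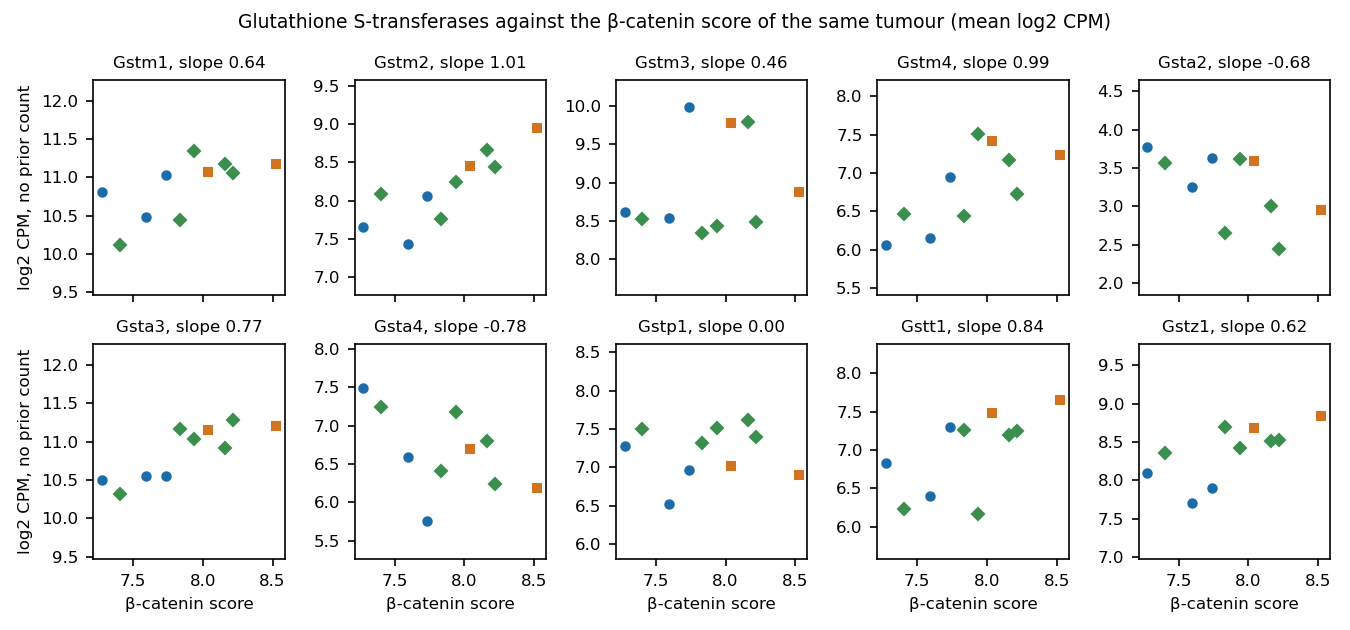
log2 CPM (no prior count) of each gene against the β-catenin score of the same tumour, with circles for the RMH4, squares for the RMH18 and diamonds for the RMH35 tumours, and the edgeR slope above each panel. The points climb from left to right for Gstm2 (slope 1.01) and Gsta3 (0.77), and fall for Gsta4 (-0.78) and Gsta2 (-0.68), while the 3 high tumours of Gstm3 lie at scores of 7.74 to 8.16.

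The NRF2 score (14 genes, among them Nqo1, Gclc, Srxn1 and Txnrd1, of which 13 passed the filter) ran from 5.59 in tumour 12 to 7.37 in tumour 13. None of the 10 genes passed in edgeR, beside 0.00802% of all genes, and 1 had an unadjusted p under 0.05, beside 3.35%. That gene was Gsta2, with a slope of 0.59 ± 0.27 (adjusted p = 1.00, edgeR) and an r of 0.64 (permutation p = 0.0440, adjusted p = 1.00; rho = 0.44, permutation p = 0.206; n = 10), which was 0.47 without tumours 12 and 13. DESeq2 called none of the 10 either, beside 0.128% of all genes. For Gstm1 the slope was 0.33 ± 0.26 (0.20 without tumour 12) and for Gstp1 -0.01 ± 0.22. For Gstm4 it was 0.46 (0.93 with the median score), with an r of 0.37 over all 10 tumours and -0.06 without tumours 12 and 13. In the 7 tumours with a low Rpph1 set its r was 0.84, from 0.75 without tumour 13 to 0.97 without tumour 09. There r was 0.68 for Gsta2, 0.58 for Gstm1 and 0.57 for Gstm2 (0.10 without tumour 12), but -0.45 for Gstt1, -0.19 for Gstz1 and -0.18 for Gsta3.

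On the score of CAR and PXR targets (10 genes, among them Cyp3a11 and Cyp2c29, of which 9 passed the filter) none of the 10 genes passed in edgeR, where 0% of all genes did, nor in DESeq2, where 0.016% did, and 1 had an unadjusted p under 0.05, beside 4.31%. That gene was Gstm3, with a slope of 1.27 ± 0.45 (adjusted p = 0.999, edgeR), an r of 0.69 (permutation p = 0.0190, adjusted p = 0.998) and a rho of 0.79 (permutation p = 0.00859, adjusted p = 0.612; n = 10). Without tumours 10 and 13 its r was 0.58, and in the 7 tumours with a low Rpph1 set it was 0.76. The score was highest in tumours 10 (7.63) and 08 (7.18), which are among the 3 high tumours for Gstm3, while the remaining one, 04, was at 6.82, below tumours 05 (7.00) and 07 (6.94), in which Gstm3 was low. The gene of the score that did not pass, Cyp2b10, had 0 counts in 5 tumours and at most 6 in the others. When the score was taken as a median of its genes, the slope of Gstm3 was 0.45 (adjusted p = 1.00, edgeR).

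Proliferation and non-hepatocyte content gave no call. On the proliferation score (12 genes, among them Mki67 and Top2a) none of the 10 genes had an unadjusted p under 0.05 in edgeR, where 5.5% of all genes did, and none passed in edgeR (0% of all genes) or DESeq2 (0.441%). The largest slope was that of Gsta4, 0.72 ± 0.36 (adjusted p = 0.924, edgeR), which was 1.32 without tumour 08 (adjusted p = 0.435, edgeR) and 0.51 without tumour 04. Its r was 0.54 (permutation p = 0.104, adjusted p = 0.967) and its rho 0.68 (permutation p = 0.0343, adjusted p = 0.741; n = 10). Without tumours 05 and 08 its r was 0.86, and in the 7 tumours with a low Rpph1 set it was 0.60 (0.34 without tumour 04). On the non-hepatocyte score, 16 genes of endothelial cells, stellate cells and macrophages of which 11 passed the filter, none had an unadjusted p under 0.05 (9.05% of all genes) and none passed, beside 0.658% of all genes in edgeR and 2.34% in DESeq2. Slopes on it ran from -0.11 ± 0.15 for Gsta3 to 0.16 ± 0.17 for Gsta2. In the 7 tumours with a low Rpph1 set, r with the non-hepatocyte score was -0.82 for Gsta3 and -0.74 for Gstm1, against -0.30 and -0.24 over all 10. Tumour 09 had the highest score and the least of both genes among the 7, and without it both values were weaker, at -0.52 for Gsta3 and -0.24 for Gstm1. Without any other 1 of the 7, r ran from -0.89 to -0.80 for Gsta3 and from -0.92 to -0.68 for Gstm1.

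**Figure D4:**
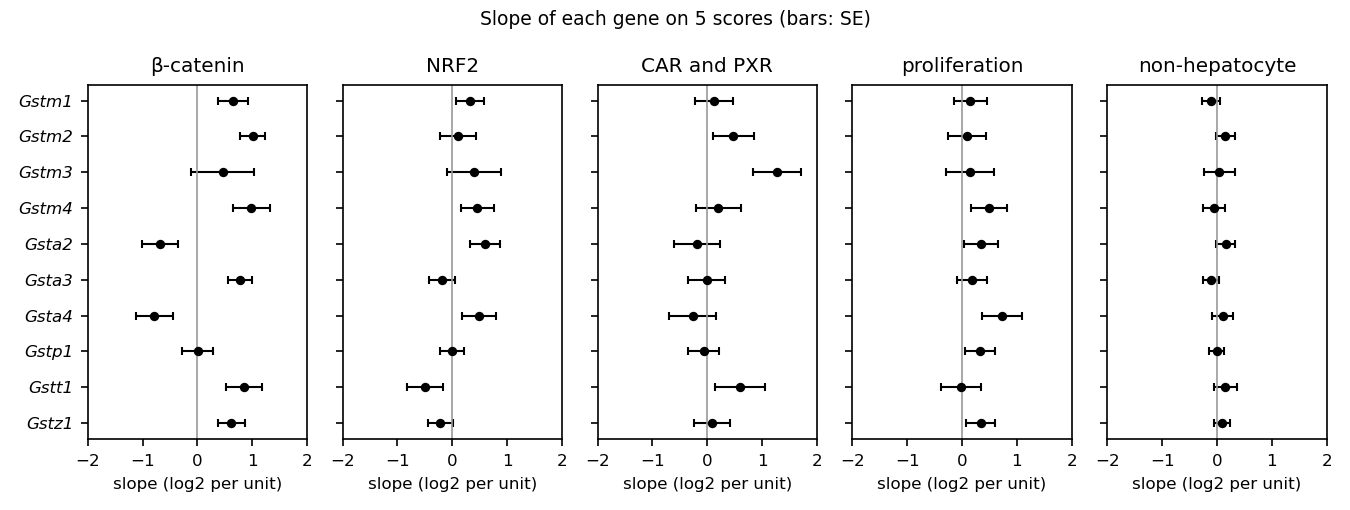
Slope of each gene on each of 5 scores (log2 CPM per unit of the score), with bars for the standard error of the edgeR fit over 10 tumours. On the β-catenin score 8 slopes lie to the right of 0, led by Gstm2 (1.01) and Gstm4 (0.99), and on the CAR and PXR score the slope of Gstm3 (1.27) stands apart, but no slope passed adjustment.

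Of the other 20 genes of the superfamily listed, 18 were matched and 12 passed the filter. None was called in any of the 6 edgeR fits, and on the β-catenin score 4 of 12 had an unadjusted p under 0.05 (3 with a positive slope), beside 14.6% of all genes. Of those that passed, the 3 with the largest SD were Gstt3 (12.6 to 55.6 CPM), Gstp3 (18.2 to 93.2 CPM) and Gstm5 (6.38 to 25.6 CPM). Mgst2, which did not pass, ran wider, from 0.0631 to 23.6 CPM (1 to 494 counts). Tumour 13 had the least Gstt3, tumour 09 the most Gstp3 and tumour 05 the least Gstm5. Genes of glutathione synthesis and turnover (13 tested, of which Gclc, Gclm and Gsr are also in the NRF2 score) had 4 with an unadjusted p under 0.05 on the β-catenin score, 3 of them with a negative slope, beside 14.6% of all genes, and none was called. Among those tested, Chac1, which degrades glutathione, had the largest SD of log2 CPM, from 1.14 to 37.3 CPM with its peak in tumour 05, then Slc3a2 (47.2 to 216 CPM) and Ahcy (28.1 to 92.9 CPM). Slc7a11, a cystine transporter of the same list and of the NRF2 score, ran wider, from 0.46 to 71.1 CPM, but did not pass the filter. Among 15 genes of conjugate export and mercapturate formation 2 had an unadjusted p under 0.05 on the β-catenin score, beside 14.6% of all genes, and 3 on the NRF2 score, beside 3.35%, all with positive slopes and none called. Of those tested, Abcc1 (0.822 to 10.9 CPM), Abcc4 (87.4 to 521 CPM, highest in tumour 13) and Nat8 (9.83 to 63.4 CPM) had the largest SD of log2 CPM, and Abcc4 is itself in the NRF2 score. Ggt1, which did not pass the filter, ran wider, from 0.131 to 16.9 CPM. In the tyrosine pathway, to which Gstz1 belongs, Hgd, which encodes the enzyme of the step before Gstz1, had the largest SD of log2 CPM (652 to 2061 CPM), and it was not called. Of 8 regulators of NRF2, Maff (13.3 to 217 CPM, lowest in tumour 12 and highest in tumour 05), Mafk (25.9 to 101 CPM) and Mafg (111 to 260 CPM) had the largest SD of log2 CPM. On the β-catenin score 2 of the 8 had an unadjusted p under 0.05 (1 with a positive slope), beside 14.6% of all genes, and none was called.

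Promoters were searched for the core of the antioxidant response element, TGACNNNGC, which NRF2 binds, and for the TCF/LEF letters CTTTGAT through which β-catenin acts, on both strands of the 250 bases before the start (RefSeq, GRCm38.p6). Promoters of 9 of the 10 genes were in the table. The first motif occurred in at least 1 promoter of 11.5% of all genes and the second in 3.72% (10.2% and 3.21% of all promoters). Of the 9 genes 1, Gsta3, held the first, and none held the second. The stretch of Gsta3 that holds it is printed because it alone of the 9 holds a match (chr1:21240439-21240498, plus strand), with that of the abundant membrane-bound Mgst1 for comparison (chr6:138140446-138140505, plus strand). Capitals mark the motif, which lies on the minus strand in Mgst1.
Gsta3: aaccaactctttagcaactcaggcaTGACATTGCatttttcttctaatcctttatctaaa
Mgst1: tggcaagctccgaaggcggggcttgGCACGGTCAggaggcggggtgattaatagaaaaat

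The slope of Gsta3 on the NRF2 score was -0.19 ± 0.23, smaller than its error, and ran from -0.36 (without tumour 13) to -0.11 (without tumour 11) when 1 tumour was left out. A match of letters in this window does not show binding, and no match says nothing of sites elsewhere or of sites in this window with other letters.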

How the data were processed

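RNA of whole liver tumours was extracted with Trizol and polyadenylated RNA was sequenced with a stranded mRNA kit, as paired reads of 36 bases. Raw counts for each Ensembl gene were deposited as a single table, and the submitters' processing notes name TopHat2, HTSeq and GRCm38; whether counting used the strand is not given in the sources used here. Of 19 columns, 10 carry a number found in 1 sample title and were used as replicates of the Tumour group; 9 were not used. Summary lines (5) were left out of library sizes; the largest, reads aligned at more than 1 place, held 45.4% to 57.9% of the table per tumour, and reads in no gene 3.60% to 6.97%. Genes and 6 comparisons, with lists and scores, were chosen with earlier results of these data known. The rule named all 10 genes, the 3 most variable or called genes of each related list, and the 3 genes nearest to each member. Of the tyrosine pathway list only the most variable gene is named, and the rest of that list is not reported here.

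Counts were filtered with filterByExpr on 1 group, scaled by TMM (factors 0.927 to 1.11) and tested in edgeR 4.0.16 (R 4.3.3, limma 3.58.1) with the quasi-likelihood test and Benjamini-Hochberg adjustment over 12462 genes at 0.05. log2 CPM used a prior count of 2. DESeq2 1.42.0 was the alternative test. Scripts were tested on simulated counts with known changes. On the β-catenin, NRF2, CAR and PXR, proliferation and non-hepatocyte scores, 56%, 47%, 38%, 58% and 68% of planted 4-fold changes were recovered. Changes smaller than 4-fold over the range of a score were not simulated, so a lack of calls does not show a lack of relation. Correlations used 100000 permutations, two-sided. Python 3.11.15, numpy 2.4.6, pandas 2.3.3 and matplotlib 3.10.9 were used. Symbols and positions came from GENCODE M39 on GRCm39 by stable identifier (87.3% matched), because the annotation of the counting build was not used here.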

Additional observations from a re-analysis of the deposited data

How the results depend on the processing

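No paired analysis was possible because all tumours used belong to 1 group. In edgeR the number of the 10 genes called stayed at 0 in all 6 comparisons under both other scalings, without the filter, with the Rpph1 covariate, with median scores and the tag family as a term where these applied, and without any 1 tumour (0 to 0), and the number past 4-fold stayed at 0 under both scalings and without any 1 tumour (0 to 0). The DESeq2 test called 1 of them between tag families and 2 on the β-catenin score, and the cause was not tested. Counts over all genes moved more. Between tag families, where edgeR called 0 genes, it called 13 without the filter, 0 to 136 without 1 tumour (90 without tumour 04 and 136 without tumour 09), and DESeq2 called 504. On the β-catenin score 4 genes became 28 with total counts, 7 without the filter, 55 with the Rpph1 covariate, 1 with the median score, 0 with the tag family, 2 to 19 without 1 tumour (19 without tumour 07) and 361 in DESeq2. On the NRF2 score 1 gene became 2 without the filter and 16 in DESeq2, 0 with the Rpph1 covariate, the median score or the tag family, and 0 to 2 without 1 tumour (2 without tumour 09, 1 without tumour 05 or 08 and 0 without any other). DESeq2 called 2 genes on the CAR and PXR score and 55 on the proliferation score, where edgeR called 0. On the non-hepatocyte score 82 genes became 201 with the median score, 291 in DESeq2 and 11 to 456 without 1 tumour.

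Of the 50 slopes of the 10 genes on the 5 scores, 42 changed sign or moved by more than 1.5 times under at least 1 alternative, 37 of them when 1 tumour was left out. Slopes that changed sign were all uncalled. Scaling by total counts moved the slope of Gstp1 on NRF2 to 0.0935, Gstp1 on CAR and PXR to 0.00902 and Gstp1 on non-hepatocyte to 0.0302. The Rpph1 set as a covariate moved the slope of Gstp1 on NRF2 to 0.0391, Gstm3 on proliferation to -0.0645, Gstt1 on proliferation to 0.0458, Gstm4 on non-hepatocyte to 0.0197 and Gstp1 on non-hepatocyte to 0.0792. DESeq2 size factors moved the slope of Gsta3 on CAR and PXR to 0.0116. For 3 further settings the slopes were added after the data were seen. Testing without the filter moved the slope of Gstp1 on NRF2 to 0.0136, Gsta3 on CAR and PXR to 0.0222 and Gstt1 on proliferation to 0.0126. The median score moved the slope of Gstp1 on NRF2 to 0.211, Gstm1 on CAR and PXR to -0.0583, Gsta3 on CAR and PXR to 0.267, Gstp1 on CAR and PXR to 0.211 and Gstt1 on proliferation to 0.112. The tag family as a term moved the slope of Gstp1 on β-catenin to -0.188, Gstp1 on NRF2 to 0.0861, Gstp1 on CAR and PXR to 0.0373, Gstz1 on CAR and PXR to -0.0583, Gstm2 on proliferation to -0.349, Gsta3 on proliferation to -0.124, Gstm3 on non-hepatocyte to -0.105, Gstp1 on non-hepatocyte to 0.114 and Gstt1 on non-hepatocyte to -0.0454. Leaving out 1 tumour gave ranges that crossed 0 for the slopes named next. On the β-catenin score these ran from -0.136 to 0.234 for Gstp1. On the NRF2 score these ran from -0.274 to 0.234 for Gstm2, -0.0645 to 0.807 for Gstm3 and -0.188 to 0.0905 for Gstp1. On the CAR and PXR score these ran from -0.322 to 0.0756 for Gsta2, -0.0986 to 0.0801 for Gsta3, -0.153 to 0.521 for Gstm1 and -0.994 to 0.0782 for Gstp1. On the proliferation score these ran from -0.153 to 0.325 for Gstm2, -0.805 to 0.629 for Gstm3 and -0.786 to 0.156 for Gstt1. On the non-hepatocyte score these ran from -0.277 to 0.0213 for Gsta3, -0.0487 to 0.232 for Gsta4, -0.249 to 0.0772 for Gstm1, -0.0568 to 0.265 for Gstm2, -0.0815 to 0.259 for Gstm3, -0.199 to 0.0813 for Gstm4, -0.132 to 0.0698 for Gstp1, -0.0374 to 0.42 for Gstt1 and -0.0171 to 0.166 for Gstz1. The lowest count behind any of the 10 genes was 84, for Gsta2.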
